A study of Mus musculus with 2 samples.

Results

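The 7 genes described here encode the proteins of the forming enamel and the proteases that remove them: Amelx, Ambn, Enam, Amtn, Odam, Klk4 and Mmp20. They were chosen by gene symbol, each matched 1 row, and they are 7 of the 34285 genes in the count matrices. Mandibular first molars with the tissue around them were taken from C57BL/6J mice at PN15.5 (PN, postnatal day), digested with Dispase and Collagenase I, and profiled by droplet-based single-cell RNA sequencing on the 10x Genomics platform. The Lipo-Clo library came from mice injected with clodronate liposomes, which deplete phagocytes, at 40 µg per g of body weight at PN3.5, then PN6.5, then PN9.5 and last PN12.5, and the Lipo-PBS library from mice given vehicle liposomes on the same days. Each condition has 1 library, and the number of mice in a library is not given in the sources used here. Treatment and library therefore cannot be told apart, no test between conditions was possible, and every interval given below is a 95% interval that covers counting error only.

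Enamel is made by ameloblasts, a layer of epithelial cells that first secrete a protein matrix and later, in the maturation stage, withdraw that matrix while they bring in mineral ions. Amelogenin (Amelx) is the bulk protein of the secreted matrix, with ameloblastin (Ambn) and enamelin (Enam) as its other structural proteins and MMP20 (Mmp20) as its early protease. KLK4 (Klk4) is the serine protease of the maturation stage, and amelotin (Amtn) and ODAM (Odam) are secreted by maturation-stage ameloblasts into the basal lamina between cell and enamel.

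Ambn, Enam and Amtn are direct neighbours on chromosome 5, where Odam also lies, Klk4 lies on chromosome 7 between Klk5 and Klk15, and Mmp20 on chromosome 9 between Mmp27 and Mmp7. Amelx lies on the minus strand of the X chromosome and overlaps Arhgap6, which is read from the other strand. Because several of these genes had their highest levels in the same cells, the 120 bases before each annotated start are given from RefSeq (GRCm38.p6), written 5′ to 3′ on the gene's strand, with every ATTGG, which reads CCAAT on the other strand, in capitals. The regions are chrX:169187210-169187329 (minus strand) for Amelx and, on the plus strand, chr5:88455871-88455990 for Ambn, chr5:88487855-88487974 for Enam, chr5:88375988-88376107 for Amtn, chr5:87884890-87885009 for Odam, chr7:43881040-43881159 for Klk4 and chr9:7628111-7628230 for Mmp20.
Amelx: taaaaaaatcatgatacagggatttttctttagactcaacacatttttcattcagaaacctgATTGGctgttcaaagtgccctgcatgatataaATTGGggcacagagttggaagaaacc
Ambn: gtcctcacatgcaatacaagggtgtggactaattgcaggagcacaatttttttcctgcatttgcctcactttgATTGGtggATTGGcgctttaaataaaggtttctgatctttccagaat
Enam: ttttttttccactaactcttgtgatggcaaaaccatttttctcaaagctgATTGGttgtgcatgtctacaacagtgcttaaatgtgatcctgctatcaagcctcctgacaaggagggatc
Amtn: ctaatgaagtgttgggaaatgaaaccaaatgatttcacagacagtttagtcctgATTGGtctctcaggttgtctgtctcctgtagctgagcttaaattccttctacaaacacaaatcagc
Odam: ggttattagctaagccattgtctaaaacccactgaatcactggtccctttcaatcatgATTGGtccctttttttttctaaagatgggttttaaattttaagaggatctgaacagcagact
Klk4: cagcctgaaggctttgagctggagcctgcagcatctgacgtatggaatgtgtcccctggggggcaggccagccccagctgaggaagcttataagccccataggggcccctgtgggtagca
Mmp20: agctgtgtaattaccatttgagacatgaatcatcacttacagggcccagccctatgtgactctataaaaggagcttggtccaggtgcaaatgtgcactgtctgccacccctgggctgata

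Within 100 bases of the start, CCAAT or its reverse ATTGG was found in 5 of the 7 genes (Amelx, Ambn, Enam, Amtn and Odam), against 18.9% of the 32851 RefSeq promoters searched on both strands. In all 5 an ATTGG stood in the longer word GATTGG on the gene's own strand, a word that 4.58% of promoters hold in the same window and that was chosen after the sequences were seen. Its ATTGG began 58 bases before the start in Amelx, 47 and 39 bases in Ambn, 70 in Enam, 66 in Amtn and 62 in Odam. Another ATTGG of Amelx, which began 26 bases before the start, followed an A and was not in that word. Neither protease gene, Klk4 nor Mmp20, holds CCAAT on either strand in 250 bases. The TATA word TATAAA, searched on both strands, was found within 100 bases in Amelx and Mmp20, against 5.56% of promoters. TGTGGT, the core letters of a RUNX motif, was found within 250 bases in Odam only among the 7 (14.0% of promoters), and the homeodomain word TAATTA in Mmp20 only (4.84% of promoters). These matches describe letters in a window and not bound sites.

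After filtering, 8254 Lipo-Clo cells with 26852423 UMIs (unique molecular identifiers, each standing for 1 captured RNA molecule) and 8261 Lipo-PBS cells with 25831678 UMIs were kept, with a median of 2567 and 2678 UMIs per cell. The libraries shared 30 cell barcodes, and mitochondrial genes took 0.370% of kept UMIs in Lipo-Clo against 1.73% in Lipo-PBS. Clusters were formed with the 7 enamel genes left out and were named from marker lists that contain none of them. Enamel UMIs still counted in the cell totals used for scaling and in the doublet scores. Macrophage-like cells were 1.54% of Lipo-Clo and 2.09% of Lipo-PBS cells, and neutrophil-like cells 6.20% and 2.28%. The ameloblast-like cluster, led by Clu, Gm17660, Calb1, Cldn1 and Fxyd4, held 595 Lipo-Clo cells (7.21%) and 324 Lipo-PBS cells (3.92%), with a median of 2324 and 2150.5 UMIs per cell.

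Ameloblast-like cells of both libraries held most of the enamel gene RNA, and Odam was the most abundant of the 7 in UMIs. They were 7.21% and 3.92% of the cells but held 90.5% (90.4 to 90.7) of the Lipo-Clo and 76.2% (75.9 to 76.6) of the Lipo-PBS enamel UMIs. By gene the held share ran from 65.8% (Mmp20) to 92.9% (Klk4) in the first library and from 43.1% (Mmp20) to 77.9% (Amtn) in the second, with Enam left aside. UMIs count molecules and were not divided by transcript length. As counts per 1000000 UMIs of the class (CPM), Odam stood at 42948 in Lipo-Clo against 32614 in Lipo-PBS. Ambn followed at 11500 and 5872 CPM and Amtn at 5814 and 3513 CPM. Klk4 stood at 2985 and 1421 CPM, close to Amelx at 2904 CPM in Lipo-Clo but above Amelx at 779 CPM in Lipo-PBS. Mmp20 was low, at 239 and 136 CPM, and Enam was near the detection limit, with 7 UMIs in Lipo-Clo against 4 in Lipo-PBS. These levels moved with the way the cells were called. Over 10 settings Odam ran from 29936 to 49416 CPM in Lipo-Clo against 14735 to 43199 CPM in Lipo-PBS, Ambn from 8085 to 13188 against 2611 to 7349 CPM, and Amelx from 2315 to 3224 against 346 to 1033 CPM. The lowest Lipo-PBS values came from cells called by at least 5 marker UMIs, and the highest values in both libraries from leaving out subclusters led by markers of other classes. The order of the genes was the same in both libraries for Odam, Ambn, Amtn, Klk4, Amelx, Mmp20 and Enam. The intervals of Klk4 and Amelx overlapped in Lipo-Clo, while those of every other pair of neighbours were apart.

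**Figure D1:**
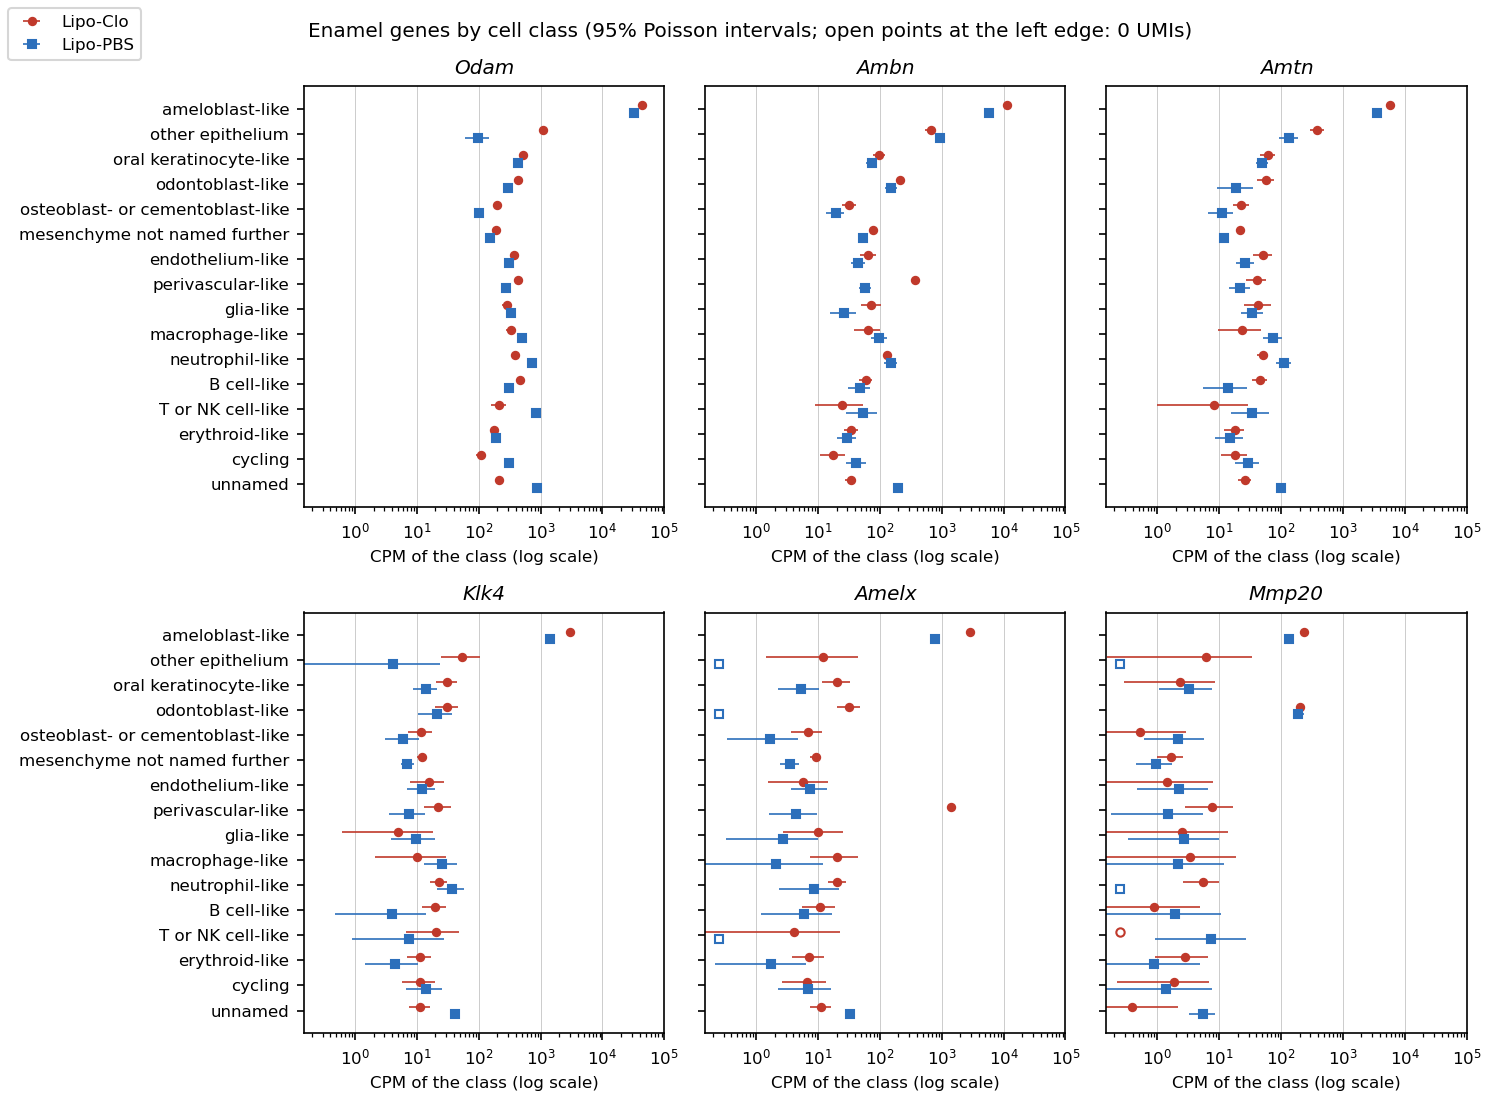
Level of 6 enamel genes in each cell class, in CPM on a log scale, with 95% Poisson intervals (red circles, Lipo-Clo; blue squares, Lipo-PBS; open points at the left edge, 0 UMIs). All 6 genes peak in ameloblast-like cells except Mmp20 in Lipo-PBS, which reaches 192 CPM in odontoblast-like cells, and the perivascular-like Amelx point of 1409 CPM in Lipo-Clo rests on 1 cell.

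Every enamel gene with enough UMIs was higher in ameloblast-like cells of Lipo-Clo than of Lipo-PBS, by unequal amounts. Amelx differed most, at 3.73-fold (log2 ratio 1.90, interval 1.78 to 2.02). Klk4 was 2.10-fold higher (log2 1.07, 0.98 to 1.16) and Ambn 1.96-fold higher (log2 0.97, 0.92 to 1.02). Mmp20 followed at log2 0.81 (0.51 to 1.12) and Amtn at 0.73 (0.67 to 0.79), and Odam differed least, at 0.40 (0.38 to 0.42). For Enam the ratio of 7 to 4 UMIs gave log2 −0.15 with an interval from −2.12 to 2.07, so a difference was not detectable at this depth. Of the 6 genes with at least 20 UMIs, 2 (Amelx and Klk4) were at least 2-fold higher in Lipo-Clo and 0 at least 2-fold lower. The background over the 9353 genes with at least 20 UMIs in these cells was 3.12% at least 2-fold higher and 4.06% at least 2-fold lower.

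Summed over the 7 genes, the level was 66394 CPM in Lipo-Clo against 44341 CPM in Lipo-PBS (log2 ratio 0.58, 0.57 to 0.60). The log2 ratio of the sum was 0.40 without subclusters led by markers of other classes and 1.23 when ameloblast-like cells were instead called by at least 5 marker UMIs, which took in 685 Lipo-Clo and 586 Lipo-PBS cells. Of these, 558 and 302 lay in the ameloblast-like cluster, so the Lipo-PBS call held many cells of other clusters. The direction was the same for all 6 genes in all 14 settings computed, and Amelx stayed at least 2-fold higher in all of them, with log2 ratios from 1.61 to 2.83.

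**Figure D2:**
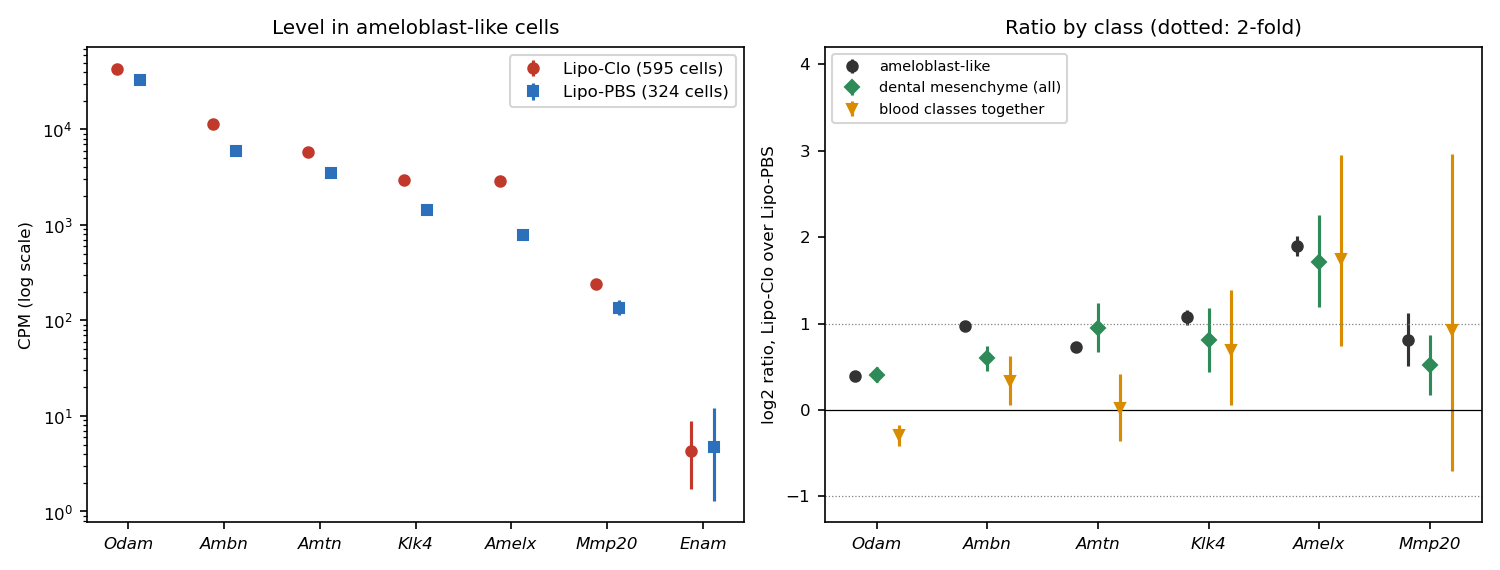
Left, level of each enamel gene in ameloblast-like cells in CPM on a log scale (595 Lipo-Clo and 324 Lipo-PBS cells); right, log2 ratio of Lipo-Clo over Lipo-PBS in ameloblast-like cells, dental mesenchyme and blood classes, with 95% intervals for counting error and dotted lines at 2-fold. Amelx has the highest ratio in all 3 classes (1.90, 1.71 and 1.75), and Odam in blood classes is the only point whose interval lies below 0.

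The make-up of the enamel RNA differed between the libraries along with its level. Odam made up 64.7% of the enamel UMIs of ameloblast-like cells in Lipo-Clo against 73.6% in Lipo-PBS. The share of Ambn was 17.3% against 13.2%, that of Amtn 8.76% against 7.92%, and that of Klk4 4.50% against 3.21%. Amelx differed most in proportion, with 4.37% against 1.76%. Relative to Odam, there were 6.76 Amelx UMIs per 100 Odam UMIs in Lipo-Clo (6.56 to 6.96), against 2.39 in Lipo-PBS (2.21 to 2.58). Ambn stood at 26.8 and 18.0 UMIs per 100 Odam UMIs. These ratios within a library do not depend on the total by which a level is divided.

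From cell to cell, Odam was near universal while Amelx was concentrated in few cells. A Lipo-Clo ameloblast-like cell held a median of 103 Odam UMIs (highest 678) and a Lipo-PBS cell 67 (highest 402). The median for Ambn was 19 and 8 UMIs, for Amtn 12 and 6, for Klk4 4 and 1, and for Amelx 1 and 0. The highest Amelx cell had 225 UMIs in Lipo-Clo against 61 in Lipo-PBS, and the 60 Lipo-Clo and 33 Lipo-PBS cells with the most Amelx held 73.6% and 66.4% of all Amelx UMIs in the class. For Odam the 33 highest Lipo-PBS cells held 28.8%, and the 60 highest Lipo-Clo cells held less. Together the 7 genes took a median of 6.81% of a cell's UMIs in Lipo-Clo against 4.50% in Lipo-PBS, up to 20.2% and 18.4% in the highest cells.

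To compare cells at equal depth, each cell was thinned to 1000 UMIs, which kept 489 Lipo-Clo and 258 Lipo-PBS ameloblast-like cells. Odam was then seen in 100% of cells in both libraries, with a median of 46 and 33.5 UMIs. At least 1 Ambn UMI was seen in 95.1% and 86.0% of cells, Amtn in 91.8% and 77.5%, Klk4 in 75.7% and 57.4%, Amelx in 49.1% and 33.7% and Mmp20 in 98 and 35 cells. In proportion, the libraries stood further apart among cells with many UMIs of a gene. Cells with at least 10 Ambn UMIs were 46.8% of Lipo-Clo and 20.5% of Lipo-PBS, and those with at least 10 Amelx UMIs were 6.75% and 0.775%. Cells with at least 50 Odam UMIs were 44.6% and 22.9%.

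**Figure D3:**
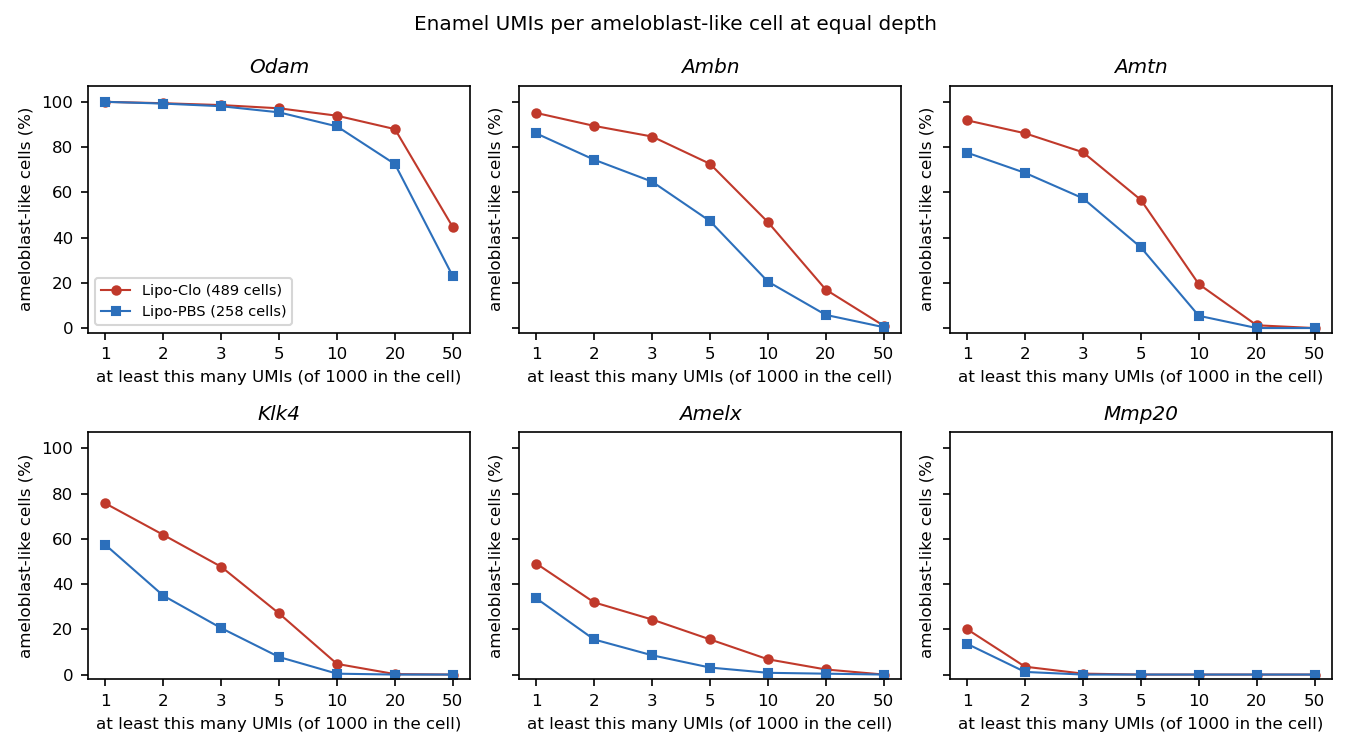
Share of ameloblast-like cells (%) with at least the number of UMIs on the horizontal axis, after thinning each cell to 1000 UMIs (red circles, 489 Lipo-Clo cells; blue squares, 258 Lipo-PBS cells). At 10 UMIs the Lipo-Clo line lies above the Lipo-PBS line for Ambn (46.8% and 20.5%), Amtn (19.4% and 5.43%) and Amelx (6.75% and 0.775%), while for Odam it lies at 93.9% and 89.1%.

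The genes did not vary as a single block among these cells. Over the thinned cells, Spearman's rho between Ambn and Klk4 was 0.58 in Lipo-Clo against 0.61 in Lipo-PBS, and between Ambn and Amtn 0.55 and 0.62. Amelx went with Ambn at 0.57 and 0.44, but with Odam at only 0.05 and 0.18. Amtn and Odam gave 0.46 and 0.49. Mmp20 gave at most 0.31 with any of the other 5, at a level where most cells had no UMI of it. These are descriptions over 489 and 258 cells that share a library and a depth.

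Divided again without the enamel genes, the ameloblast-like cells fell into 7 subclusters, of which 6 had cells of both libraries. Amelx was higher in Lipo-Clo in all 6, with log2 ratios from 0.77 to 2.88, and so were Ambn (0.28 to 1.04), Amtn (0.44 to 0.76) and Klk4 (0.12 to 1.19). The counting interval lay above 0 in all 6 for Amelx, Ambn and Amtn, and in 5 for Klk4. Mmp20 was also higher in all 6 (0.23 to 1.39), but with an interval above 0 in only 1. Odam was higher in 4 of the 6, with ratios from −0.05 to 0.63. Amelx and Ambn were highest in the subcluster led by Eml5, Slc34a2 and Cpeb3 (95 Lipo-Clo and 41 Lipo-PBS cells), where Amelx stood at 5322 and 1524 CPM and Ambn at 19635 and 9978 CPM. In these same cells Odam differed little, at 51588 and 53545 CPM (log2 −0.05, −0.10 to −0.01). The subcluster led by Rcan1, Plb1 and Calb1 held 253 Lipo-Clo but 55 Lipo-PBS cells, with Amelx at 3164 and 1330 CPM. The subcluster led by Usp32 and Nav2 had similar cell numbers (123 and 125) and lower Amelx, at 1012 and 594 CPM.

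Among the 6, 2 were led by listed markers of other classes. The subcluster led by Ibsp and Col1a1 (62 and 60 cells) had Odam at 23571 and 17827 CPM, and the one led by Igkc and Ly6d (37 and 20 cells) at 35485 and 22903 CPM. Another, led by Pcdh9 and Ctnnd2 (25 and 15 cells), had 0 such markers among its leading genes. Its leading genes Pcdh9, Ctnnd2 and Slc20a2 also led a mesenchyme cluster, and it was kept when subclusters led by markers of other classes were left out. Marker sums of other classes in the whole ameloblast-like cluster also differed between the libraries. The mesenchyme list (9 of 9 genes detected in both) summed to 9795 CPM in Lipo-Clo against 15993 CPM in Lipo-PBS, and the erythroid list (7 of 7 in both) to 39409 and 67218 CPM. The neutrophil list summed to 1027 CPM (8 of 8 genes detected) and 146 CPM (7 of 8). The part of these differences in the enamel ratios was not tested beyond leaving the subclusters out (log2 0.40) and leaving mitochondrial, haemoglobin and ribosomal genes out of the totals (log2 0.50).

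Lists of other genes of the ameloblast had lower median ratios than the enamel genes, whose median log2 ratio was 0.89, against 0.02 over all 9353 genes. Of the ion and mineral transport list of the maturation stage, 18 of 23 genes had at least 20 UMIs, with a median log2 ratio of 0.38, and 3 were at least 2-fold higher and 0 at least 2-fold lower in Lipo-Clo. Calb1, a cytosolic calcium-binding protein, stood at 2906 and 1291 CPM, Stim2, a calcium sensor of the endoplasmic reticulum, at 350 and 151 CPM, and Slc34a2, a sodium-phosphate cotransporter, at 212 and 106 CPM. Slc24a4, the sodium-calcium exchanger of maturation ameloblasts, was at 843 and 662 CPM (log2 0.35). Of the adhesion and junction list, 1 of 13 genes was past 2-fold: Itgb6, an integrin subunit, at 114 and 38.0 CPM. These counts stand beside a background of 3.12% higher and 4.06% lower over all genes, which comes to under 1 gene in a list of this length, and nothing was read from them. The abundant members of that list differed little, with the hemidesmosome integrin Itga6 at 1260 and 1006 CPM and the tight junction gene Cldn1 at 1128 and 1133 CPM.

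Of the 14 ameloblast transcription factors, 0 were past 2-fold either way and the median log2 ratio was 0.08. Runx2 stood at 1270 and 1107 CPM and Foxo1 at 708 and 650 CPM. In the list of enamel kinases, phosphatases and other secreted or lysosomal proteins, 12 of 13 genes had a value, the median was −0.06, and 2 were at least 2-fold lower in Lipo-Clo: Dspp (9 and 16 UMIs) and Dmp1 (12.8 and 27.3 CPM), both genes of the dentin matrix. The most abundant of that list, the lysosomal membrane genes Lamp1 (500 and 518 CPM) and Cd63 (478 and 447 CPM), were nearly level. Of the 19 ameloblast naming markers, 15 had a value, with a median of 0.48 and 4 past 2-fold higher (Slc34a2, Calb1, Itgb6 and Gpr155, the last at 238 and 85.4 CPM). The most abundant of them, Gm17660, was on the other side, at 12601 and 18769 CPM (log2 −0.57). Beside the counts of these 3 lists the background over all 9353 genes was again 3.12% higher and 4.06% lower, and nothing was read from them.

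Over the 26 clusters, the genes whose level ran closest to a member's were mostly genes of ion transport or enamel maturation. The closest to Klk4 were Acp4 (Pearson r = 0.986), Ggt1 (0.975) and Slc34a2 (0.971), and the closest to Odam were Fxyd4 (0.962), Wdr72 (0.954) and Ggt1 (0.953). Amtn was closest to Akain1 (0.968) and Fxyd4 (0.959), Ambn to Gm33302 (0.899) and Clu (0.895), and Mmp20 to Slc13a5 (0.961), the citrate transporter. For Amelx the closest was Gm50431 (0.941), and without 1 unusual cell, described last, it was Acp4 (0.968). Over clusters of shared libraries these coefficients describe a likeness of pattern, and a gene found only in 1 cluster reaches a high value easily.

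Outside ameloblast-like cells, a low level of the abundant enamel genes was found in every class, among them blood cells that do not make enamel proteins. Free RNA, that is, RNA released from other cells and captured in a droplet, was assumed to make up this level, which was not tested. The level was uneven over cells. In erythroid-, neutrophil-, B cell- and T or NK cell-like cells together, 28 Lipo-Clo cells (1.79%) with at least 10 enamel UMIs held 52.6% of the enamel UMIs. In Lipo-PBS 16 such cells (1.81%) held 68.7%. They were kept when the level was measured, in 8 reference classes: endothelium-, perivascular-, glia-, macrophage-, neutrophil-, B cell-, T or NK cell- and erythroid-like cells. At least 1 Odam UMI was seen in 26.7% (endothelium-like) to 41.7% (macrophage-like) of their cells in Lipo-Clo and 18.1% (neutrophil-like) to 30.1% (macrophage-like) in Lipo-PBS, at class median depths of 974 to 3446 and 1014 to 3008.5 UMIs. For Ambn the range was 5.32% to 13.4% and 5.35% to 10.1%. Ameloblast-like cells exceeded the median CPM of the 8 classes 120-fold and 102-fold for Odam, 178-fold and 118-fold for Ambn, 169-fold and 166-fold for Klk4, and 280-fold and 215-fold for Amelx.

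This background share of Odam was higher in Lipo-Clo in all 8 classes and in all 14 named classes other than ameloblast-like cells. After thinning to 1000 UMIs per cell it was higher in 7 of the 8 and 12 of the 14, with ranges of 13.5% to 23.6% in Lipo-Clo, against 10.1% to 18.9% in Lipo-PBS. By CPM, Odam in the 8 classes did not all go the same way. Its log2 ratio was 0.29 in endothelium-, 0.62 in perivascular- and 0.61 in B cell-like cells. It was −0.17 in glia-, −0.60 in macrophage-, −0.92 in neutrophil-, −1.98 in T or NK cell- and −0.09 in erythroid-like cells. Over all kept cells of a library, Odam stood at 2854 CPM in Lipo-Clo against 1376 CPM in Lipo-PBS, Ambn at 779 and 271 CPM, and Amelx at 227 and 33.0 CPM. Of those Odam UMIs, ameloblast-like cells held 91.6% and 77.3%. The other genes did not all follow Odam: of the 8 classes, the share of cells with Mmp20 was higher in Lipo-Clo in 3 and lower in 5, and the thinned share of Amtn was higher in 4 and lower in 4. The part of free RNA in the values of other classes was not tested.

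**Figure D4:**
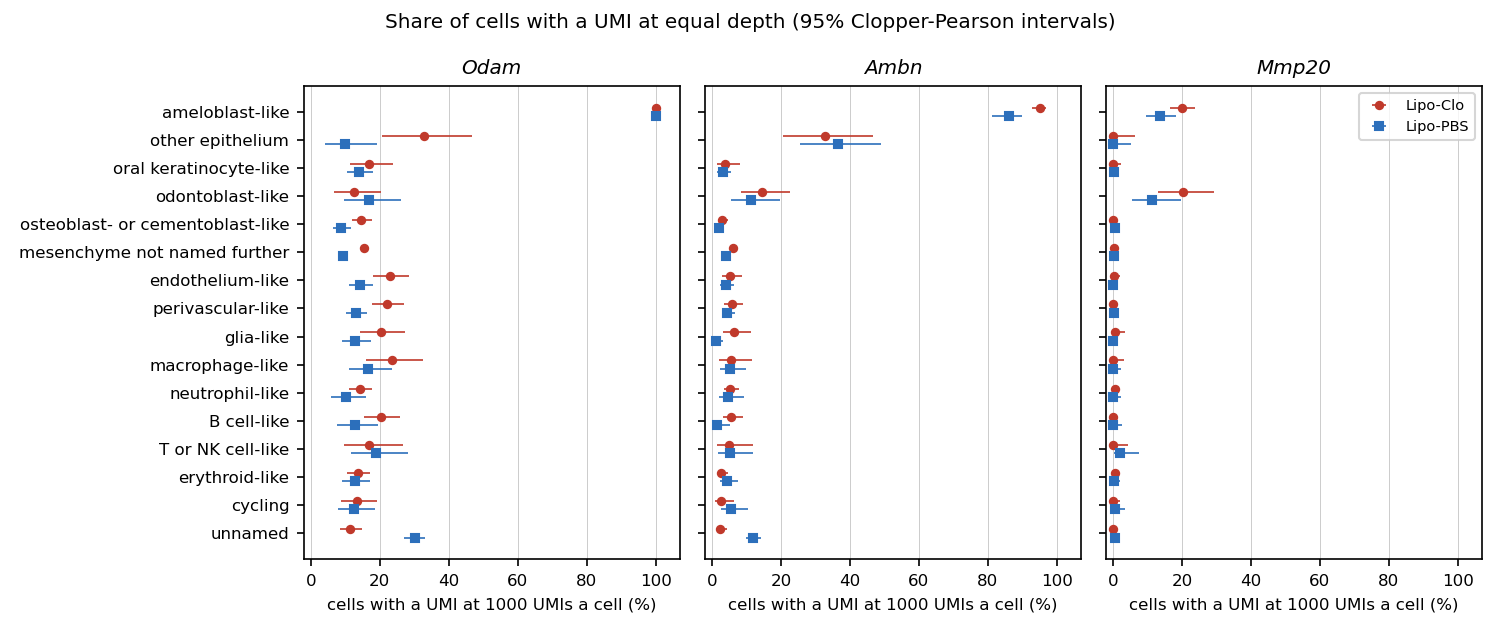
Share of cells (%) with at least 1 UMI of Odam, Ambn or Mmp20 in each class after thinning to 1000 UMIs a cell, with 95% Clopper-Pearson intervals (red circles, Lipo-Clo; blue squares, Lipo-PBS). Odam lies lower outside ameloblast-like cells, at up to 32.7% of Lipo-Clo and 18.9% of Lipo-PBS cells in another named class. Ambn stands out in other epithelium (32.7% and 36.6%). Mmp20 stands out in ameloblast-like cells (98 of 489 and 35 of 258 cells) and odontoblast-like cells (20.2% and 11.2%), with at most 2.11% in any other class.

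Dental mesenchyme was taken as mesenchyme, odontoblast-like and osteoblast- or cementoblast-like cells together (4095 Lipo-Clo and 3902 Lipo-PBS cells). Its shares of cells with Odam, Amtn, Klk4 and Amelx did not pass those of the highest reference class. Odam was seen in 34.3% and 20.9% of cells, Amtn in 5.69% and 2.87%, Klk4 in 3.49% and 1.77%, and Amelx in 2.25% and 0.743%, all within the ranges of the 8 classes. The part of free RNA in these shares of the pooled class was not tested. By CPM, dental mesenchyme of Lipo-PBS lay below the lowest reference class for Odam (153 against 192 CPM) and Amtn (12.2 against 13.7 CPM). The other CPM values of these 4 genes in the pooled class lay within the reference ranges of their library. Odontoblast-like cells of Lipo-Clo alone stood above the highest reference class for Amtn (57.1 against 51.4 CPM, 43 UMIs), Klk4 (30.5 against 22.7 CPM, 23 UMIs) and Amelx (31.9 against 30.1 CPM, 24 UMIs). Those of Lipo-PBS did not, and this was not tested. The summed enamel level of dental mesenchyme was 342 CPM in Lipo-Clo against 237 CPM in Lipo-PBS (log2 ratio of the sum 0.53, interval 0.46 to 0.60), but the ratio was 0.080 with coarser clusters. Of 6 genes, 1 (Amelx, 137 and 40 UMIs, log2 1.71) was at least 2-fold higher, against 1.84% of 15088 genes higher and 2.98% lower. Cells with at least 10 enamel UMIs made up 1.00% and 1.10% of the class and held 26.4% and 41.8% of its enamel UMIs, and without them the ratio was 0.87. This cut was made on the same genes after the data were seen.

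In the blood classes together (erythroid-, neutrophil-, B cell- and T or NK cell-like, 1568 and 882 cells) the summed level was 466 CPM in Lipo-Clo against 505 CPM in Lipo-PBS (log2 ratio of the sum −0.11, interval −0.22 to −0.01). That direction was not kept in every setting: the ratio was 0.086 after TMM and 0.092 after DESeq2 scaling. Cells with at least 10 enamel UMIs, a cut made on these same genes after the data were seen, held much of the level. They were 28 cells (1.79%) with 52.6% of the enamel UMIs in Lipo-Clo and 16 cells (1.81%) with 68.7% in Lipo-PBS. Without them the ratio was 0.49. Odam alone stood at log2 −0.29 (1603 and 931 UMIs) although its share of cells was higher in Lipo-Clo, at 35.2% against 24.0%, so no order was read from it. In T or NK cell-like cells of Lipo-PBS, 1 cell held 158 of the 223 Odam UMIs. Amelx was again higher in Lipo-Clo, with 64 and 9 UMIs (log2 1.75, 0.74 to 2.95), the 1 of 6 genes past 2-fold, against 2.15% of 11840 genes higher and 7.87% lower. As a percent of its ameloblast-like level, Amelx in blood classes stood at 0.441% and 0.488%, Odam at 0.747% and 1.21%, and Ambn at 0.656% and 1.01%.

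With Enam left aside, Mmp20 was the member whose level in another named class stood highest relative to its ameloblast-like level. In odontoblast-like cells, the dentin-forming cells at the pulp surface that are known to make MMP20, it reached 203 CPM in Lipo-Clo (153 UMIs in 127 cells) and 192 CPM in Lipo-PBS (101 UMIs in 94 cells). It was seen in 43.3% and 30.9% of these cells, against at most 1.37% and 1.80% of cells in the 8 reference classes. The level was 85.0% of that of ameloblast-like cells in Lipo-Clo against 141% in Lipo-PBS, and odontoblast-like cells held 25.8% and 37.8% of all Mmp20 UMIs. For every 100 Odam UMIs there were 47.4 and 65.2 Mmp20 UMIs, against 0.557 and 0.418 in ameloblast-like cells. Between the libraries the odontoblast-like level differed by log2 0.08 (−0.29 to 0.46), an interval that holds 0 and stays within 2-fold in either direction. The ameloblast-like ratio of Mmp20 was 0.81 (0.51 to 1.12), and the difference between the 2 ratios was not tested.

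Besides ameloblast-like cells, 3 classes or clusters had Ambn above the highest of the 8 reference classes in both libraries. Each had more Ambn per Odam UMI than ameloblast-like cells had, which was not particular to them. Neutrophil-like cells, a reference class, did too, with 244 Ambn and 709 Odam UMIs in Lipo-Clo and 70 and 336 in Lipo-PBS. So did clusters led by Mmp13 and Sfrp2 (117 and 261, then 60 and 161) and by Ctnnd2 and Cntn4 (88 and 217, then 42 and 50). The highest reference level of Ambn was 132 CPM in Lipo-Clo against 151 CPM in Lipo-PBS, both in neutrophil-like cells, once 1 unusual perivascular-like cell of Lipo-Clo, described last, was left out. It was passed in 1 library only by a cluster led by Ctnnd2 and Cntn4 (136 CPM in Lipo-Clo, 100.2 CPM in Lipo-PBS) and by an unnamed cluster led by Acta2 and Tagln (31.1 CPM in Lipo-Clo, 219 CPM in Lipo-PBS). In the other epithelium, a small cluster led by Cxcl14, Dsc3, Nppc and Wnt4 (60 and 74 cells, median 1955 and 2203 UMIs), Ambn reached 661 CPM in Lipo-Clo against 932 CPM in Lipo-PBS and was seen in 61.7% and 60.8% of cells. Odam there stood at 1097 and 96.5 CPM, with 60 of the 181 Lipo-Clo UMIs in 1 cell. In Lipo-PBS, Ambn thus outnumbered Odam, with 965 Ambn UMIs per 100 Odam UMIs, whereas ameloblast-like cells of that library had 18.0. The log2 ratio of Ambn between the libraries was −0.50 (−0.84 to −0.16), on the other side from the ameloblast-like cells. Ambn was not the only gene raised in the other epithelium. Amtn stood at 388 and 134 CPM (64 and 32 UMIs), against at most 51.4 and 110 CPM in the reference classes. In Lipo-Clo, Odam and Klk4 (54.5 CPM, 9 UMIs) also passed the highest reference levels of 465 and 22.7 CPM. In Lipo-PBS they did not, and this was not tested.

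A mesenchyme cluster led by Kcnip4 and Pcp4 (481 and 268 cells, median 2897 and 3276.5 UMIs) had Ambn at 257 and 240 CPM, in 43.2% and 46.3% of cells. At equal depth the shares were 20.3% and 19.1%, above the thinned shares of all 8 reference classes, which did not pass 6.33% and 5.26%. Its Odam, at 213 and 108 CPM, was at or below the reference level. The log2 ratio of Ambn was 0.10 (−0.13 to 0.33), so a difference was not detectable, while that of Odam in the same cells was 0.98 (0.67 to 1.30). Odontoblast-like cells had Ambn at 211 and 154 CPM in 36.2% and 39.4% of cells, with 54 of 159 Lipo-Clo UMIs in 1 cell, and in Lipo-PBS their interval (122 to 191 CPM) overlapped that of neutrophil-like cells.

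**Figure D5:**
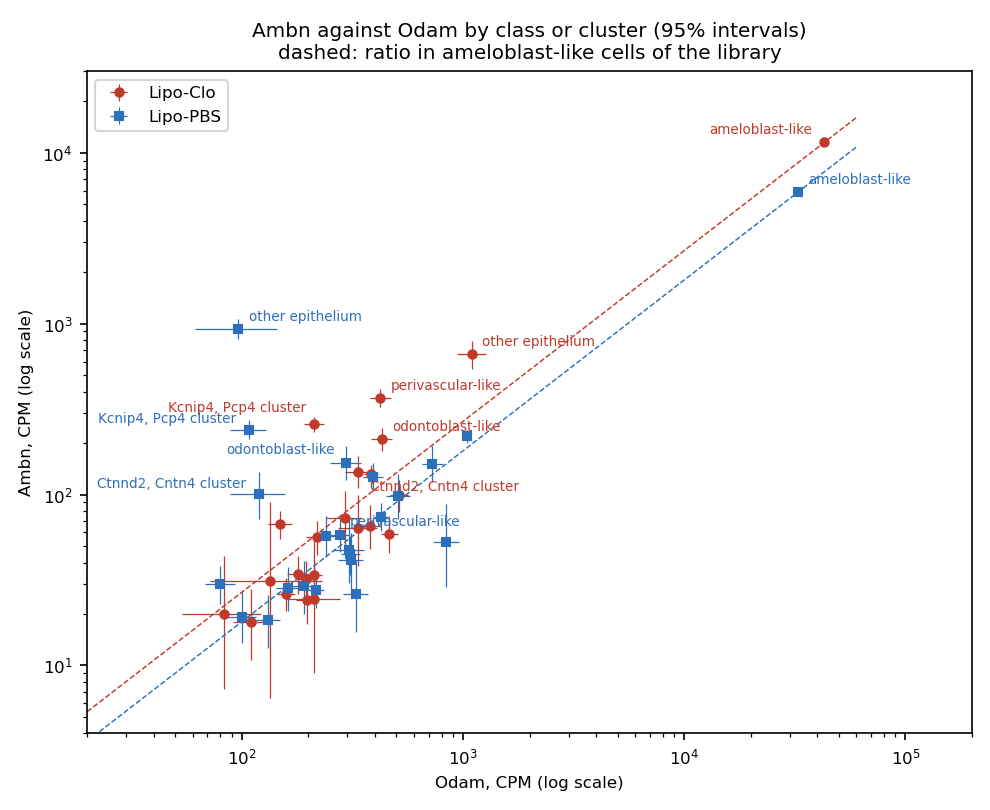
Ambn against Odam in each class or cluster, both in CPM on log scales with 95% Poisson intervals (red circles, Lipo-Clo; blue squares, Lipo-PBS); dashed lines mark the Ambn to Odam ratio of ameloblast-like cells of the library (26.8 and 18.0 UMIs per 100). The other epithelium, the Kcnip4 and Pcp4 cluster and odontoblast-like cells lie above the line in both libraries. Neutrophil-like cells and the clusters led by Mmp13 and Sfrp2 and by Ctnnd2 and Cntn4 do so as well. The Lipo-Clo perivascular-like point includes 217 Ambn UMIs of 1 cell.

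Enam was almost absent from both libraries apart from 1 cell. Over all deposited cells there were 121 Enam UMIs in 17 Lipo-Clo cells and 11 in 11 Lipo-PBS cells, and 1 Lipo-Clo cell held 105 of them (86.8%). The other 16 Lipo-Clo cells had 1 each. That cell was singled out after its values were seen. It had 4998 UMIs and 1868 genes, and of its UMIs 1061 were Amelx, 217 Ambn, 105 Enam and 6 Mmp20, while Odam, Amtn and Klk4 were at 0. The 3 structural matrix genes and Mmp20 therefore took 27.8% of the cell, more than the enamel genes took in any ameloblast-like cell. It was the only cell of either library with more than 1 Enam UMI.

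The cell was placed among perivascular-like cells, and it carried 27 UMIs of 3 of the 7 perivascular markers, 21 of them Rgs5, 27 UMIs of 3 of the 9 mesenchyme markers, 14 of them Col3a1, 22 UMIs of 6 of the 19 ameloblast markers, 13 of them Calb1, and 13 UMIs of 4 of the 11 epithelial markers. Of the 7 B cell markers it had 10 UMIs of 1, Ebf1. Its doublet score of 0.0975 was below the limit used. With it, perivascular-like cells of Lipo-Clo had Amelx at 1409 CPM, and without it at 30.1 CPM (23 UMIs), against 4.49 CPM (6 UMIs) in Lipo-PBS. Ambn there was 367 CPM with and 85.1 CPM without the cell, against 58.3 CPM.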

How the data were processed

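Both libraries were single-cell suspensions of PN15.5 first molars and adjacent tissue. The deposited UMI counts per gene and cell were made by the authors with Cell Ranger, version 8.0.0 per the file headers and 3.1.0 in the submitters' processing notes, which also name Seurat 3.1.1 and the mouse build GRCm39 (mm39); no normalization had been applied. Both matrices list only barcodes with 500 UMIs or more. Promoters come from another build, GRCm38.p6, and no coordinates of the 2 builds were combined.

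Cells with under 200 genes (473 Lipo-Clo, 748 Lipo-PBS) or over 20% mitochondrial UMIs (3 and 11) were removed. Scrublet's automatic threshold marked 0 and 1 cells, which was taken as failure, and the 632 and 633 cells with the highest scores were removed instead, at an assumed rate of 0.8% per 1000 cells. Both libraries were clustered together without the 7 enamel genes (scanpy 1.11.5, leidenalg 0.10.2, 2000 variable genes, 30 components, 20 neighbours, resolution 1), giving 26 clusters. A name needed at least 3 markers at 2-fold or more over the median cluster with a UMI in 10% of cells, and the rules between competing names were settled after the clusters were seen. The ameloblast-like subclusters used 1000 variable genes, 15 components and resolution 0.5.

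UMIs were summed over the cells of a class and divided by the class total. Intervals are exact Poisson, Clopper-Pearson, or exact conditional for a ratio of 2 counts (Python 3.11.15, scipy 1.17.1), and they cover counting error only. With 1 library per condition no model was fitted across genes; edgeR 4.0.16 and DESeq2 1.42.0 (R 4.3.3) gave only alternative scaling factors. Genes needed 20 UMIs over both libraries to count toward the 2-fold shares. Likeness is Pearson's r of log2(CPM + 10) over clusters, for genes with at least 100 UMIs. The ratio script was tested on simulated counts.

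The text names the 7 genes and, from 4 lists, the 2 most abundant and those past 2-fold, and by likeness up to 3 genes for a member; the naming markers Gpr155 and Gm17660 were chosen after their values were seen. Members and lists were chosen with earlier results of these data known. Alternatives covered clustering, filters, doublets, depth, scaling and the calling of ameloblast-like cells. The settings without mixed subclusters and without cells of 10 or more enamel UMIs were added after the data were seen.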

Additional observations from a re-analysis of the deposited data

Results flagged for a closer look

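Several classes outside the ameloblast-like cells had log2 ratios (Lipo-Clo over Lipo-PBS) on the other side of 0 from the ameloblast-like cells, with counting intervals that excluded 0. With 1 library per condition, none of these differences between classes was tested. For Ambn the ratio was −0.50 in the other epithelium (109 and 222 UMIs) and −1.22 in cycling cells (19 and 30 UMIs). For Amtn it was −1.67 in macrophage-like cells (7 and 35 UMIs) and −1.10 in neutrophil-like cells (95 and 51 UMIs). For Odam it was −0.60 in macrophage-like, −0.92 in neutrophil-like, −1.98 in T or NK cell-like and −1.50 in cycling cells. Summed over the 7 genes it was −0.64, −0.74, −1.80 and −1.29 in the same 4 classes. The share of cells with Odam went the other way and was higher in Lipo-Clo in all 14 named classes other than ameloblast-like cells. In T or NK cell-like cells of Lipo-PBS, 1 cell held 158 of the 223 Odam UMIs.

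Cells left out of the classes also carried enamel RNA, more of it in Lipo-Clo. Those with under 200 genes had 241 CPM over the 7 genes in Lipo-Clo (311 UMIs in 473 cells), against 130.2 CPM in Lipo-PBS (260 UMIs in 748 cells). Those removed as doublets had 4690 CPM (13640 UMIs in 632 cells), against 990.1 CPM (2674 UMIs in 633 cells).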

How the results depend on the processing

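The log2 ratio of the summed genes in ameloblast-like cells (0.58) was positive under all 14 settings. It was 0.55 at Leiden resolution 0.5 and 0.56 at 2, 1.23 for cells called by at least 5 marker UMIs, 0.62 with a stricter filter (500 genes, 10% mitochondrial UMIs), 0.54 with doublets kept, 0.67 with each library clustered alone, 0.55 with every deposited cell, 0.62 with the 7 genes kept in clustering, 0.56 with DESeq2 size factors, 0.50 when mitochondrial, haemoglobin and ribosomal genes were left out of the totals, 0.62 with totals without the 7 genes, and 0.40 without mixed subclusters. In dental mesenchyme (0.53) it was 0.080 at resolution 0.5, 0.42 thinned to 1000 UMIs, 0.68 with libraries clustered alone, 0.71 with every cell and 0.87 without cells of 10 or more enamel UMIs. In blood classes (−0.11) its sign was kept in 8 of 13 settings. It was −0.38 with the stricter filter, −0.40 thinned and −0.31 without mitochondrial, haemoglobin and ribosomal genes in the totals, but 0.092 with DESeq2 and 0.086 with TMM factors, 0.68 with doublets kept, 0.75 with every cell and 0.49 without cells of 10 or more enamel UMIs. The causes were not tested.

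Ameloblast-like cells held 90.5% (Lipo-Clo) and 76.2% (Lipo-PBS) of the enamel UMIs. The pair was 90.4% and 75.3% at resolution 0.5, 90.4% and 75.4% at 2, 93.4% and 87.8% by marker UMIs, 90.2% and 75.1% with the stricter filter, 91.7% and 78.2% thinned, 90.9% and 77.6% with the 7 genes in clustering, and 73.3% and 57.1% without mixed subclusters. For Lipo-Clo it was also 87.9% with doublets kept, 89.6% clustered alone and 88.6% with every cell. Klk4 was past 2-fold in ameloblast-like cells in 12 of 14 settings and Ambn in 4. Without a UMI minimum, 17.4% of 17717 genes there were at least 2-fold higher, against 3.12%, and 14.7% lower. Of the values that answer a comparison, 18 stayed as reported and 42 moved. Over single genes and shares, 210 values stayed as reported and 155 moved. For most of these, moved means outside the counting interval of the value reported. The shares of all genes past the fold limit are among them and were judged by a fold range instead.

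No paired analysis was possible because there is 1 library to a condition. Enam, with 7 and 4 UMIs in ameloblast-like cells, was too sparse for any comparison.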

Other observations

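An unnamed cluster led by Acta2, Tagln and Tm4sf1 held 25 Lipo-Clo and 667 Lipo-PBS cells and had more enamel RNA in Lipo-PBS than any reference class. Odam was seen in 52.5% of its Lipo-PBS cells at 1040 CPM (2668 UMIs), Ambn at 219 CPM and Amtn at 118 CPM. Its Lipo-Clo cells had 13 Odam UMIs. Unnamed clusters together held 8.82% of the enamel UMIs of Lipo-PBS and 0.630% of those of Lipo-Clo.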
